A study of Mus musculus with 18 samples.

Results

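Bulk RNA-seq of bone marrow-derived macrophages (BMDMs) was read for 9 genes of itaconate production and the tricarboxylic acid (TCA) cycle: Acod1, Aco1, Cs, Idh1, Idh2, Idh3a, Ogdh, Fh1 and Slc25a1. The genes were named as a list of symbols, with no threshold on a measured value but with earlier results of these data known, out of 16314 gene symbols in the count table, and 9 of 9 were in the table and among the 12021 genes tested. The BMDMs were grown for 7 days with 50 ng/ml M-CSF from femoral marrow of mice on the C57BL6/J background that lacked Prep, the gene of prolyl endopeptidase (Prep-/-), or of heterozygous littermates (Prep+/-). They were left without stimulation (M0), given 50 ng/ml LPS for 24 h (M1), or cultured for 24 h in IL-4 plus IL-13, each at 20 ng/ml (M2). Each of these 6 groups held 3 biological replicates. The controls carried 1 inactive Prep allele in all 3 states, so no wild-type cells enter any comparison, and Prep was missing from the whole animal rather than from macrophages alone. The age of the mice and whether marrow was pooled are not given in the sources used here.

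The TCA cycle oxidizes acetyl-CoA in mitochondria and supplies precursors for synthesis. Macrophages that meet bacterial LPS are known to rewire it: cis-aconitate, an intermediate between citrate and isocitrate, is turned into the antimicrobial and immunoregulatory metabolite itaconate by the enzyme that Acod1 (also called Irg1) encodes, citrate is sent out to the cytosol, and flux through isocitrate dehydrogenase is known to drop. Macrophages given IL-4 are known for an intact, active cycle.

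Total counts per library lay between 19068237 and 22598279. Prep itself was lower in Prep-/- BMDMs of every state, with log2 fold changes of -4.29 (M0), -3.74 (M1) and -3.77 (M2), as the genotype labels give. The M1 markers Nos2, Il6, Il1b and Tnf summed to at most 1208 CPM (counts scaled to a common library total), in an M1 library. The M2 markers Arg1, Mrc1, Chil3 and Retnla summed to at most 12074 CPM, in an M2 library. In M1 the M1 sum was 881 to 1208 CPM in Prep+/- against 405 to 554 CPM in Prep-/-. Nos2 alone went the other way there, at 22.7 to 38.1 against 109 to 378 CPM. In M2 the M2 sums overlapped, at 6520 to 8087 against 7355 to 12074 CPM. Arg1 and Mrc1 were lower and Chil3 and Retnla higher in Prep-/- M2. The third replicates of Prep-/- M0 and of Prep-/- M2 stood apart from their groups: their mean chi-square per gene against a replicate of the same group was 111 to 120, while every other pair lay between 9.87 and 49.1. All 8 macrophage markers were in the count table. Their summed levels were 18997 to 22403 CPM in Prep+/- M0 and 30377 to 48169 CPM in Prep-/- M0. That order was the reverse in M1, at 45750 to 47201 against 30995 to 37037 CPM, and was kept in M2, at 10025 to 12200 against 13886 to 19562 CPM. The 7 granulocyte precursor markers summed to 14.8 to 38.9 CPM in Prep-/- M0 against 7.25 to 11.3 CPM in Prep+/- M0, to 7.48 to 10.1 against 10.6 to 21.1 CPM in M1, and to 6.80 to 10.8 against 4.32 to 6.0 CPM in M2. They were thus higher without Prep in M0 and M2 and lower in M1. The 3 B cell markers in the table summed to 8.66 to 11.5 CPM in Prep-/- M0 against 3.01 to 4.78 CPM in Prep+/- M0, to 5.09 to 6.96 against 2.06 to 2.59 CPM in M1, and to 0.958 to 4.45 against 1.56 to 2.81 CPM in M2, where the genotypes overlapped. The 5 stromal markers were lower in Prep-/- M1, at 5.60 to 17.0 against 17.9 to 20.2 CPM, and overlapped in M0 and M2. The highest sums of 4 dendritic cell and 4 erythroid markers in any library were 2.59 and 0.138 CPM. Of 5 T cell markers 2 were in the table, and they summed to 7.84 to 29.6 CPM in Prep-/- M0 against 0.750 to 0.962 CPM in Prep+/- M0, to 2.27 to 3.27 against 0.674 to 1.35 CPM in M1, and to 1.55 to 2.46 against 0.170 to 0.461 CPM in M2. The part of any of these lists in the results was not tested, and in bulk RNA fewer cells of a type and less RNA per cell cannot be told apart.

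The study from which the counts come was concerned with promoters and with PU.1, the factor that defines the macrophage lineage, so the promoter letters of the 3 genes with a PU.1 or STAT match are shown for reading beside their levels. RefSeq windows on GRCm38.p6 matched 8 of the 9 symbols, and 6 motifs were searched on both strands: PU.1 (GAGGAA), the E-box (CACGTG), and the motifs of NF-kappaB (GGGA and TTCC with 2 bases between), ISRE (GAAA and GAAA with 2 bases between), STAT (TTC and GAA with 4 bases between) and NRF1 (GCGCA and GCGC with 1 base between). No match of one motif lay on that of another in the lines printed. The lines give the 250 bases before the annotated start of transcription in the direction of the gene, with matches in capitals.
Acod1 (chr14:103046762-103047011, plus strand): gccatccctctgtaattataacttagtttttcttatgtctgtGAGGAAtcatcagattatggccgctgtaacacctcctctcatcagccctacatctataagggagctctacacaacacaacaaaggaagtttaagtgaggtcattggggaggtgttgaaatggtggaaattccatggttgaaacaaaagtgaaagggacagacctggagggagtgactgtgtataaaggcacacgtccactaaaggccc
Idh1, the first of its 2 windows (chr1:65179143-65179392, minus strand): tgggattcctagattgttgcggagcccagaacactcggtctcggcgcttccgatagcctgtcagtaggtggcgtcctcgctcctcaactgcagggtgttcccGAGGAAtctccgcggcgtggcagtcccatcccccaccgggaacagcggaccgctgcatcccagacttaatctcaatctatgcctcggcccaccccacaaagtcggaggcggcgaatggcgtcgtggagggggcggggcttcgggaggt
Fh1 (chr1:175625636-175625885, minus strand): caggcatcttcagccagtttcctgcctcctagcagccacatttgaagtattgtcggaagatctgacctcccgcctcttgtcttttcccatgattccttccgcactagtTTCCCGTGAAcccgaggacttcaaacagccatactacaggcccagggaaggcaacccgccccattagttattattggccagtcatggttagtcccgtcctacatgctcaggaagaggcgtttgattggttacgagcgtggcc
The Acod1 and Idh1 capitals are PU.1 letters that begin 208 and 148 bases before the start, and the Fh1 capitals are a match to the STAT motif 142 bases before it. PU.1 letters stood in 28.3% of 32851 promoter windows of the same length, and a STAT match in 6.95%. The Slc25a1 window and 3 of the 6 Ogdh windows held an E-box, which stood in 7.15% of windows. The Ogdh windows that start at chr11:6292308 and chr11:6292329 overlap and share the same E-box. The second Idh1 window (chr1:65186430-65186729), which lies upstream of the first on the minus strand, held none of the 6 motifs. The windows of Aco1, Cs and Idh2 held none either. None of the 8 genes held the NF-kappaB letters, which stood in 1.47% of windows, the ISRE, in 3.44%, or the NRF1 letters, in 4.6%. A match is a description of letters only.

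To examine the effect of Prep on these genes, Prep-/- and Prep+/- BMDMs were compared within each state. In M0, Prep-/- BMDMs held 1.95-fold more Idh1 and 1.73-fold more Fh1, and Idh3a and Idh2 were lower by 3.57-fold and 1.57-fold. In M1, Idh1 and the citrate carrier gene Slc25a1 were higher and Idh3a was lower. In M2, Idh1 was higher and Idh2 lower. Genes were counted as differentially expressed genes (DEGs) with a Benjamini-Hochberg adjusted p under 0.05 in edgeR's quasi-likelihood test and a fold change over 1.5, and all adjusted p-values are of that test over the 12021 genes.

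By that rule, in M0 2 of the 9 genes were higher in Prep-/- BMDMs, where 15.4% of all genes tested were, and 2 were lower, where 17.2% were. In M1, 2 were higher beside 12.3% of all genes, and 1 was lower beside 10.2%. In M2, 1 was higher beside 6.37% and 1 was lower beside 9.82%. The median absolute log2 fold change of the 9 genes was 0.56, 0.33 and 0.41 by state in that order, and that of all genes tested was 0.43, 0.37 and 0.28. Idh1 was the gene of the 9 that passed in all 3 states. Without the third replicates of Prep-/- M0 and Prep-/- M2, a choice made after the data were seen, the counts in M0 were the same and those in M2 were 2 higher and 2 lower, with Acod1 and Idh3a added. In that fit 16.6% of all genes tested were higher and 19.5% lower in M0, and 9.11% and 13.8% in M2.

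**Figure D1:**
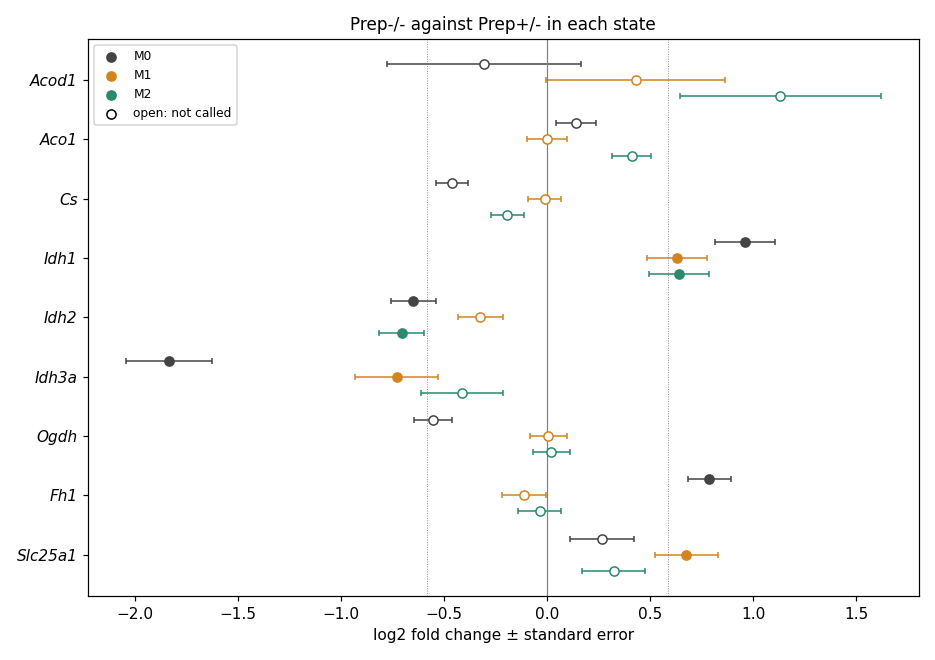
Log2 fold change of Prep-/- against Prep+/- BMDMs for each gene in M0, M1 and M2 (horizontal axis, 3 libraries a group). Error bars are ± the standard error derived from the F statistic of the edgeR test. Filled points are DEGs, open points are not, the dotted lines mark the fold change of 1.5, and Idh3a in M0 lies farthest from 0 at -1.84.

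Acod1 codes for aconitate decarboxylase, the enzyme that makes itaconate, and lies on chr14:103284413-103294009 (plus strand; all gene positions are on GRCm39). Its normalized counts (counts scaled by TMM to a common library size) without stimulation were 204, 270 and 146 in Prep+/- BMDMs and 228, 225 and 46.9 in Prep-/- BMDMs. The M1 libraries held 71896, 57695 and 65317 in Prep+/- and 95353, 76819 and 90225 in Prep-/-. Every M1 library was thus far above every M0 library, and each Prep-/- M1 library was above each Prep+/- M1 library. LPS raised Acod1 by 8.30 ± 0.60 (SE) on the log2 scale in Prep+/- BMDMs (adjusted p = 1.14e-08) and by 9.03 ± 0.62 in Prep-/- BMDMs (adjusted p = 6.86e-09). The M1 genotype difference did not pass in the fit over all 18 libraries, with a log2 fold change of 0.43 ± 0.43 (adjusted p = 0.457). A fit of the 6 M1 libraries alone gave nearly the same difference with a smaller error, 0.41 ± 0.12 (adjusted p = 0.0180), which stayed under the fold of 1.5. The spread of Acod1 was wide where the gene was low, from 46.9 to 228 in Prep-/- M0. The M2 libraries had 86.6, 62.1 and 164 counts (Prep+/-) and 378, 191 and 116 counts (Prep-/-), and the groups overlapped. The M2 difference of 1.13 ± 0.49 did not pass (adjusted p = 0.101). It was 1.47 with an adjusted p of 0.0280 without the third Prep-/- M2 library, and 0.55 with an adjusted p of 0.493 without the first. The contrast of M2 with M0 passed in neither genotype, at -0.99 ± 0.49 in Prep+/- (adjusted p = 0.183) and 0.45 ± 0.47 in Prep-/- (adjusted p = 0.465). In Prep+/- a fit of those 6 libraries alone gave -0.98 with an adjusted p of 0.0446.

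Cs codes for citrate synthase, which joins acetyl-CoA and oxaloacetate at the entry of the cycle, and lies on chr10:128172837-128198363 (plus strand). Its normalized counts without stimulation, 4517, 4538 and 4628 for Prep+/- against 3149, 3350 and 3432 for Prep-/-, did not overlap. In M1 they were 5969, 5834 and 6004 against 5704, 6057 and 5889, and in M2 5329, 5450 and 5340 against 4417, 4560 and 5109. Cs was thus lowest in Prep-/- M0, and the 2 genotypes overlapped in M1 alone. The M0 difference of -0.46 ± 0.08 passed on adjusted p (0.000199) and not on fold. The M1 and M2 differences were -0.01 ± 0.08 (adjusted p = 0.913) and -0.19 ± 0.08 (adjusted p = 0.0851). LPS raised Cs by 0.83 ± 0.08 in Prep-/- BMDMs (adjusted p = 2.66e-07), and in Prep+/- BMDMs the difference of 0.38 ± 0.08 was under the fold of 1.5 (adjusted p = 0.000727). IL-4 and IL-13 gave 0.24 ± 0.08 in Prep+/- and 0.50 ± 0.08 in Prep-/- BMDMs, both past the adjusted p (0.0479 and 9.07e-05) and under the fold.

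Slc25a1 codes for the mitochondrial carrier that takes citrate out to the cytosol, the source of acetyl-CoA for lipid synthesis, and lies on chr16:17743075-17746245 (minus strand). After LPS it was counted 2454, 2716 and 2434 times in Prep+/- against 3754, 4261 and 4131 times in Prep-/-. No Prep+/- M1 library reached any Prep-/- M1 library, and the difference of 0.68 ± 0.15, or 1.60-fold, passed (adjusted p = 0.00363). In M0 they were 2082, 1876 and 1686 against 2160, 1790 and 2832, and in M2 1724, 1664 and 1664 against 1956, 1756 and 2603. The highest count of both Prep-/- groups came from the third replicate, the library that stood apart. The differences there were 0.27 ± 0.15 in M0 (adjusted p = 0.169) and 0.32 ± 0.15 in M2 (adjusted p = 0.143). LPS raised Slc25a1 by 0.84 ± 0.16 in Prep-/- BMDMs (adjusted p = 0.000217), while the 0.43 ± 0.15 of Prep+/- BMDMs stayed under the fold of 1.5 (adjusted p = 0.0279). With IL-4 and IL-13 the values were -0.16 ± 0.15 and -0.10 ± 0.15 (adjusted p = 0.525 and 0.619).

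Aco1 codes for the cytosolic aconitase, which turns citrate to isocitrate and, without its iron-sulfur cluster, binds iron-responsive RNA elements. The gene lies on chr4:40142998-40199010 (plus strand). Its M0 counts were 1125, 1117 and 1165 (Prep+/-) against 1293, 1334 and 1123 (Prep-/-), and its M1 counts were 1213, 1068 and 1171 against 1004, 1269 and 1173. In M2 they were 1723, 1898 and 1746 against 2389, 2387 and 2350. The 4 M0 and M1 groups of Aco1 overlapped, and Prep-/- M2 was highest, with no overlap between the M2 groups. IL-4 and IL-13 raised it by 0.66 ± 0.10 in Prep+/- (adjusted p = 0.000123) and by 0.93 ± 0.10 in Prep-/- BMDMs (adjusted p = 1.28e-06). The M2 genotype difference of 0.41 ± 0.10 passed on adjusted p (0.00532) and not on fold. Neither M0 (0.14 ± 0.10, adjusted p = 0.254) nor M1 (0.00 ± 0.10, adjusted p = 0.986) passed.

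**Figure D2:**
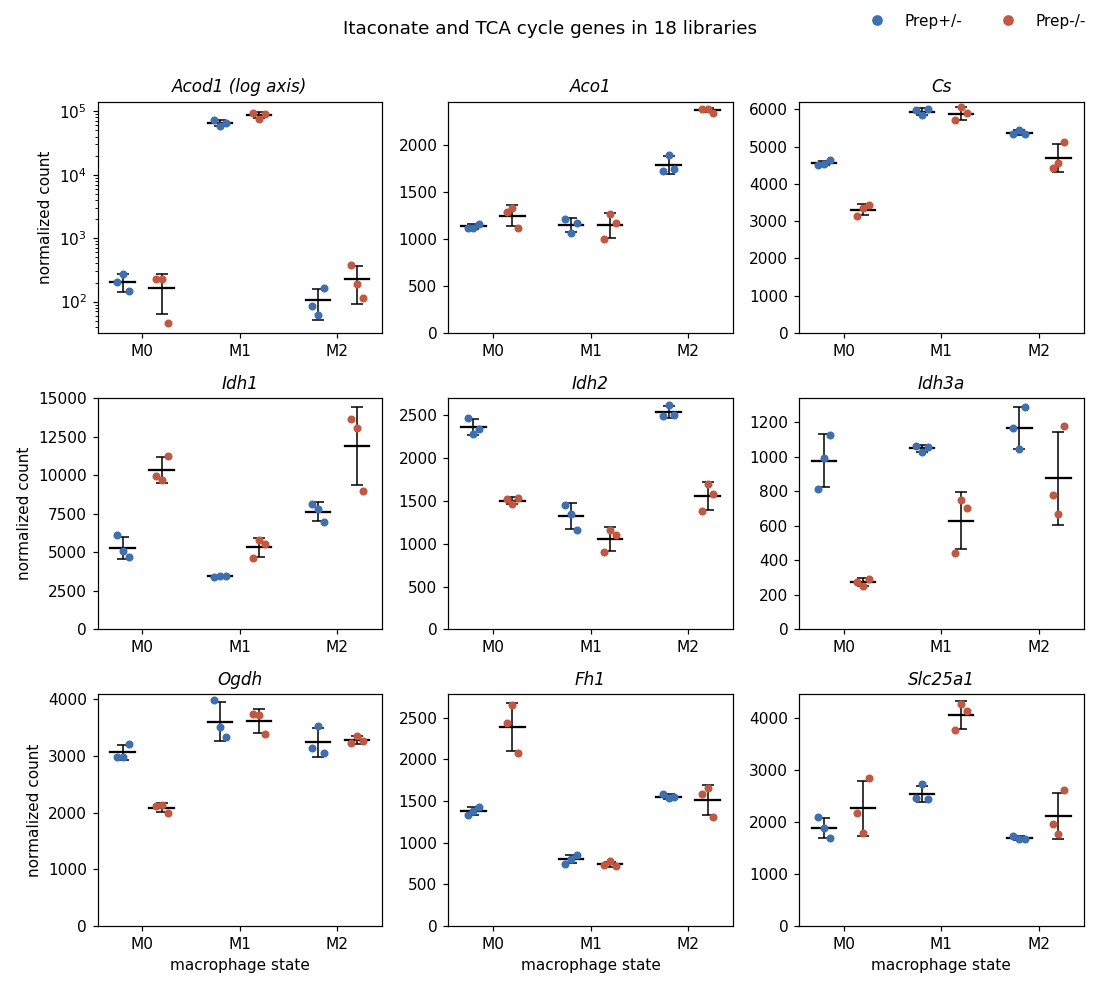
Normalized counts (vertical axes, logarithmic for Acod1 and from 0 for the others) of the 9 genes in each library of Prep+/- and Prep-/- BMDMs by state, with the group mean as a bar and the SD of 3 libraries as an error bar. Idh3a in Prep-/- M0 (252 to 294) and Idh1 in Prep-/- M0 (9728 to 11287) lie clear of their Prep+/- groups, and the third Prep-/- M2 library has the highest Idh3a and the lowest Idh1 of its group.

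Cells hold isocitrate dehydrogenases of several compartments: Idh1 and Idh2 code for the NADP+-dependent enzymes of the cytosol and of the mitochondrion, which make NADPH, and Idh3a codes for the catalytic subunit of the NAD+-dependent enzyme of the TCA cycle. Idh1 (chr1:65196781-65225721, minus strand) had M0 counts of 6112, 5085 and 4720 (Prep+/-) and 9955, 9728 and 11287 (Prep-/-). In M1 the counts were 3415, 3482 and 3452 against 4661, 5805 and 5530, and in M2 8138, 7833 and 7005 against 13678, 13093 and 8991. In each state the lowest Prep-/- library was above the highest Prep+/- library. The differences were 0.96 ± 0.15 in M0 (adjusted p = 6.62e-05), 0.63 ± 0.15 in M1 (adjusted p = 0.00387) and 0.64 ± 0.15 in M2 (adjusted p = 0.00424). The M1 and M2 calls lay just over the fold of 1.5. Without the second Prep-/- M1 library the M1 value was 0.55, and without the first or the second Prep-/- M2 library the M2 value was 0.52 or 0.58, each under that fold with an adjusted p of 0.0232, 0.0367 and 0.0235. LPS lowered Idh1 in both genotypes, by 0.62 ± 0.15 in Prep+/- (-0.62, adjusted p = 0.00182) and by 0.95 ± 0.15 in Prep-/- (-0.95, adjusted p = 3.58e-05). The Prep+/- call was lost on fold without the first Prep+/- M0 library (-0.53, adjusted p = 0.0128). After IL-4 and IL-13 the value was 0.53 ± 0.15 in Prep+/- (adjusted p = 0.0165, under the fold, but 0.63 and past it without that library, adjusted p = 0.0173) and 0.21 ± 0.14 in Prep-/- (adjusted p = 0.264).

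Idh2 (chr7:79741431-79765535, minus strand) went the other way. Its M0 counts of 2465, 2274 and 2338 (Prep+/-) and 1520, 1458 and 1531 (Prep-/-) did not overlap. In M2 they were 2488, 2612 and 2503 against 1378, 1696 and 1583, also apart, and in M1 1454, 1350 and 1158 against 901, 1159 and 1103, where one pair of libraries overlapped by less than 1 count. Prep-/- BMDMs were lower by 0.65 ± 0.11 in M0 (-0.65, adjusted p = 0.000153) and by 0.71 ± 0.11 in M2 (-0.71, adjusted p = 0.000214). The M1 difference of -0.33 ± 0.11 was under the fold (adjusted p = 0.0291). LPS lowered Idh2 by 0.84 ± 0.11 in Prep+/- BMDMs (-0.84, adjusted p = 7.16e-06), and the -0.51 ± 0.11 of Prep-/- BMDMs was under the fold (adjusted p = 0.000777). IL-4 and IL-13 gave 0.10 ± 0.11 and 0.05 ± 0.11 (adjusted p = 0.556 and 0.756).

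As Idh1 was higher and Idh2 lower, the ratio of their normalized counts within a library, a description chosen after the values were seen and not corrected for transcript length, separated the genotypes. It lay between 2.02 and 3.27 in the 9 Prep+/- libraries. The Prep-/- ratios were 6.55, 6.67 and 7.37 without stimulation, 5.17, 5.01 and 5.01 after LPS, and 9.93, 7.72 and 5.68 in M2. Every Prep-/- library thus lay above every Prep+/- library, in all 3 states.

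Idh3a (chr9:54493575-54514730, plus strand) had the widest genotype difference of the 9 genes in M0. It was counted at 816, 993 and 1125 in Prep+/- and at 276, 252 and 294 in Prep-/- M0 BMDMs. That is a difference of -1.84 ± 0.21, or 3.57-fold (adjusted p = 5.30e-06). In M1 the counts were 1061, 1028 and 1055 against 441, 749 and 702, and in M2 1168, 1042 and 1287 against 777, 671 and 1179. The genotypes were apart in M1 and overlapped in M2 through the third Prep-/- library. The M1 difference of -0.73 ± 0.20 passed (adjusted p = 0.0106) and was -0.54 with an adjusted p of 0.0544 without the first Prep-/- M1 library. The M2 difference of -0.41 ± 0.20 did not pass (adjusted p = 0.143), and without the third Prep-/- M2 library it was -0.67 (adjusted p = 0.0105). In Prep-/- BMDMs Idh3a was raised by LPS, by 1.20 ± 0.21 (adjusted p = 0.000114), and by IL-4 and IL-13, by 1.68 ± 0.21 (adjusted p = 8.01e-06). In Prep+/- BMDMs the same contrasts were 0.10 ± 0.20 (adjusted p = 0.698) and 0.25 ± 0.20 (adjusted p = 0.418). The transcript shares 1106 bases in antisense with Acsbg1, whose count reached 86 at most in any library.

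The genes of the regulatory subunits of the same enzyme, Idh3g and Idh3b, were not lower in Prep-/- M0 BMDMs. Idh3g was higher by 0.68 ± 0.10 (adjusted p = 6.40e-05), at 2605 ± 35.1 against 1625 ± 45.7 normalized counts (SD, n = 3), and Idh3b differed by 0.35 ± 0.11, under the fold (adjusted p = 0.0175). In M0 the ratio of Idh3a to Idh3g normalized counts was 0.488, 0.611 and 0.712 for Prep+/- against 0.107, 0.0967 and 0.111 for Prep-/-. After LPS it was 1.01, 0.965 and 0.988 against 0.364, 0.610 and 0.603, and in M2 0.631, 0.555 and 0.723 against 0.320, 0.276 and 0.673. The genotypes were apart in M0 and M1 and overlapped in M2, again at the third Prep-/- M2 library.

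**Figure D3:**
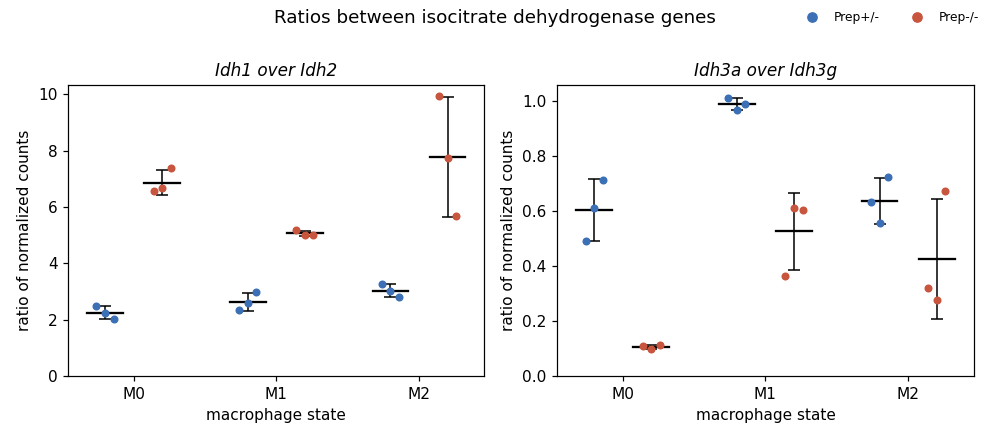
Ratio of normalized counts within each library (vertical axes, from 0) for Idh1 over Idh2 and Idh3a over Idh3g, by state and genotype, with group mean and SD of 3 libraries. The Idh1 over Idh2 ratio is 2.02 to 3.27 in Prep+/- and 5.01 to 9.93 in Prep-/- libraries, and the Idh3a over Idh3g ratio of Prep-/- M0 lies between 0.0967 and 0.111.

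Ogdh codes for the first subunit of the 2-oxoglutarate dehydrogenase complex, the step after isocitrate dehydrogenase, and lies on chr11:6241551-6309233 (plus strand). Its M0 counts were 2988, 2991 and 3217 (Prep+/-) against 2127, 2138 and 1992 (Prep-/-). In M1 they were 3989, 3508 and 3329 against 3744, 3732 and 3384, and in M2 3136, 3528 and 3058 against 3224, 3356 and 3270. The genotypes were thus apart in M0 and overlapped in both stimulated states. The M0 difference of -0.56 ± 0.09 passed on adjusted p (0.000124) and lay just under the fold of 1.5, which it passed without the second Prep+/- M0 library (-0.60, adjusted p = 0.000437). Those of M1 and M2 were 0.00 ± 0.09 (adjusted p = 0.976) and 0.02 ± 0.09 (adjusted p = 0.908). In Prep-/- BMDMs Ogdh rose by 0.80 ± 0.09 with LPS (adjusted p = 1.70e-06) and by 0.65 ± 0.09 with IL-4 and IL-13 (adjusted p = 2.47e-05). In Prep+/- BMDMs the values were 0.24 ± 0.09 (adjusted p = 0.0376, under the fold) and 0.08 ± 0.09 (adjusted p = 0.589). A stretch of up to 237 bases of the Ogdh transcript matches 95 other genes, so reads from it are uncertain.

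Fh1 codes for fumarate hydratase, which turns fumarate to malate, and lies on chr1:175425290-175453205 (minus strand). In M0 it was counted at 1336, 1383 and 1433 in Prep+/- and at 2440, 2652 and 2075 in Prep-/- BMDMs, a difference of 0.79 ± 0.10, or 1.73-fold (adjusted p = 1.94e-05). In M1 the counts were 748, 802 and 846 against 726, 777 and 714, and in M2 1583, 1534 and 1542 against 1585, 1650 and 1307. The genotypes were apart in M0 and overlapped in M1 and M2. The differences there were -0.11 ± 0.11 (adjusted p = 0.421) and -0.04 ± 0.10 (adjusted p = 0.833). LPS lowered Fh1 by 0.79 ± 0.11 in Prep+/- (-0.79, adjusted p = 8.38e-06) and by 1.69 ± 0.11 in Prep-/- BMDMs (-1.69, adjusted p = 2.66e-09). With IL-4 and IL-13 it fell by 0.66 ± 0.10 in Prep-/- (adjusted p = 8.74e-05), which was -0.57 and under the fold without the third Prep-/- M2 library (adjusted p = 0.000263), and differed by 0.17 ± 0.10 in Prep+/- (adjusted p = 0.299).

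Polarization of each genotype was then counted over the 9 genes, with each genotype's M1 and M2 comparisons sharing its M0 libraries. LPS raised 1 and lowered 3 in Prep+/- BMDMs, beside 16.7% and 20.9% of all genes tested. In Prep-/- BMDMs it raised 5 and lowered 2, beside 20.9% and 21.0%. Acod1, Idh1 and Fh1 passed in both genotypes in the same direction, Idh2 passed in Prep+/- alone, and Cs, Idh3a, Ogdh and Slc25a1 passed in Prep-/- alone. Without the second or the third Prep-/- M1 library Idh2 passed in Prep-/- BMDMs too (-0.63 and -0.59, adjusted p = 0.000428 and 0.00119). IL-4 and IL-13 raised 1 and lowered 0 in Prep+/- BMDMs, beside 6.09% and 6.77%, and raised 3 and lowered 1 in Prep-/- BMDMs, beside 14.7% and 15.5%. Aco1 passed in both, and Idh3a, Ogdh and Fh1 in Prep-/- alone. Without the third Prep-/- M2 library the lowered count in Prep-/- was 0, and the share of all genes in that fit is not given here.

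**Figure D4:**
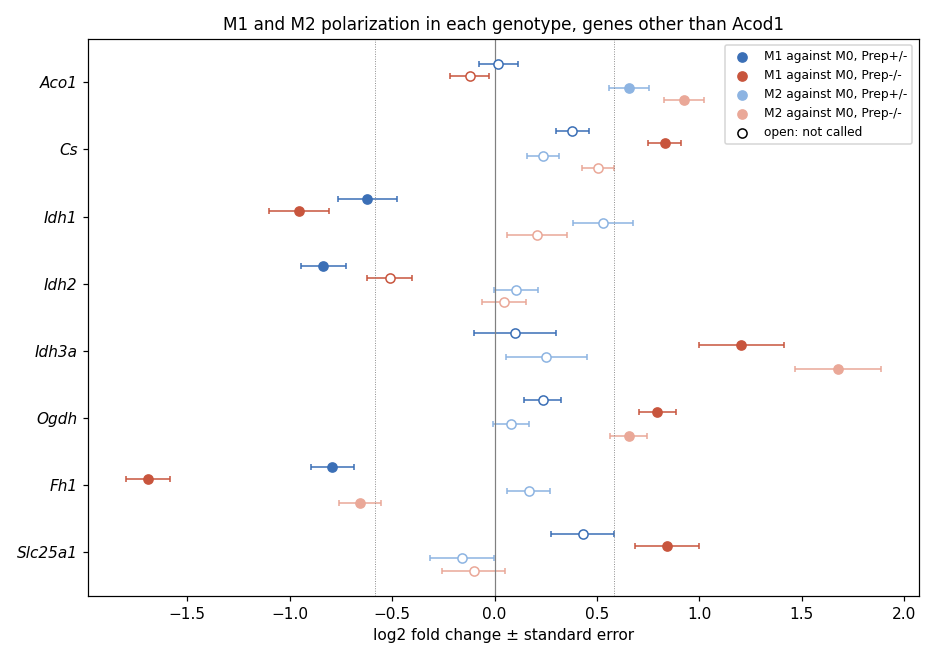
Log2 fold change of M1 and of M2 against M0 in Prep+/- and Prep-/- BMDMs (horizontal axis, 3 libraries a group). Error bars are ± the standard error derived from the F statistic of the edgeR test. Shown are the 8 genes other than Acod1, which lies off this scale at 8.30 and 9.03 in M1. Filled points are DEGs, and for Idh3a the Prep-/- points at 1.20 and 1.68 lie to the right of the Prep+/- points at 0.10 and 0.25.

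Whether a genotype effect differed between states was tested as an interaction, which is the same quantity as the difference of the polarization between genotypes, and was called on adjusted p alone. For M1 against M0, 3 of the 9 genes had a higher effect, where 13.7% of all genes had, and 1 had a lower one, where 10.9% had. The higher ones were Cs (0.45 ± 0.11, adjusted p = 0.00899), Idh3a (1.10 ± 0.29, adjusted p = 0.0109) and Ogdh (0.56 ± 0.13, adjusted p = 0.00530), and the lower one was Fh1 (-0.90 ± 0.15, adjusted p = 0.000539). In each the effect of M0 was smaller in size in M1. For M2 against M0, 2 were higher beside 5.16% of all genes and 1 was lower beside 4.48%. These were Idh3a (1.42 ± 0.29, adjusted p = 0.00675), Ogdh (0.57 ± 0.13, adjusted p = 0.0115) and Fh1 (-0.82 ± 0.15, adjusted p = 0.00335). For Idh1 and Idh2 the interaction did not pass in M1 (-0.33 ± 0.20 and 0.32 ± 0.15, adjusted p = 0.249 and 0.133) or in M2 (-0.32 ± 0.20 and -0.06 ± 0.15, adjusted p = 0.340 and 0.852). Slc25a1, a DEG in M1 alone, had an interaction of 0.41 ± 0.22 that did not pass (adjusted p = 0.180), and without the third Prep-/- M0 library it was 0.61 (adjusted p = 0.0288).

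Levels were compared between genes only per length, as CPM per kilobase of the canonical transcript. In Prep+/- M0 BMDMs Idh1 stood at 76.0 ± 10.3, Cs at 73.0 ± 0.94, Idh2 at 63.7 ± 2.62 and Slc25a1 at 48.3 ± 5.08 (SD, n = 3). Ogdh, Idh3a, Fh1 and Aco1 followed at 21.3 ± 0.91, 17.9 ± 2.83, 12.4 ± 0.43 and 11.7 ± 0.27, and Acod1 was lowest at 3.72 ± 1.12. In M1 Acod1 led at 1170 ± 128 in Prep+/- and 1575 ± 172 in Prep-/- BMDMs, and in Prep-/- the next gene was Slc25a1 at 104 ± 6.76. In Prep-/- M0 the order of the lowest genes was other than in Prep+/-: Fh1 stood at 21.3 ± 2.61 and Idh3a between 4.60 and 5.37.

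The order of the 6 groups differed from gene to gene. For Idh1 the highest groups were Prep-/- M2 and Prep-/- M0, which overlapped, and the lowest was Prep+/- M1, 3.46-fold under the highest mean. For Idh3a the lowest group was Prep-/- M0, apart from the next, Prep-/- M1, and each of the other neighbours overlapped, with 4.26-fold between the highest and lowest means. For Fh1 Prep-/- M0 was the highest and apart from Prep+/- M2, the next, and the M1 groups were the lowest and overlapped. For Cs and Ogdh the lowest group was Prep-/- M0, apart from Prep+/- M0, and the range over groups was 1.79-fold and 1.74-fold.

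Other genes around the cycle were read in 6 lists with 47 symbols, of which 45 were in the table and 43 were tested. Of the 43, M0 BMDMs without Prep had 3 higher and 10 lower, where 15.4% and 17.2% of all genes tested were. In M1 3 were higher and 4 lower, beside 12.3% and 10.2%, and in M2 1 was higher and 5 lower, beside 6.37% and 9.82%. Their median log2 fold changes were -0.15, -0.06 and 0.02, and those of all genes tested were 0.02, 0.04 and 0.03. Without the 2 libraries that stood apart the counts were 3 and 10 in M0, beside 16.6% and 19.5% of all genes, and 3 and 8 in M2, beside 9.11% and 13.8%. The counts of single lists that follow, in lists of 4 to 13 tested genes, are descriptions to be read against these same shares. Pdk4 and the succinate receptor gene Sucnr1 were in the table with at most 2 counts in any library and were not tested.

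**Figure D5:**
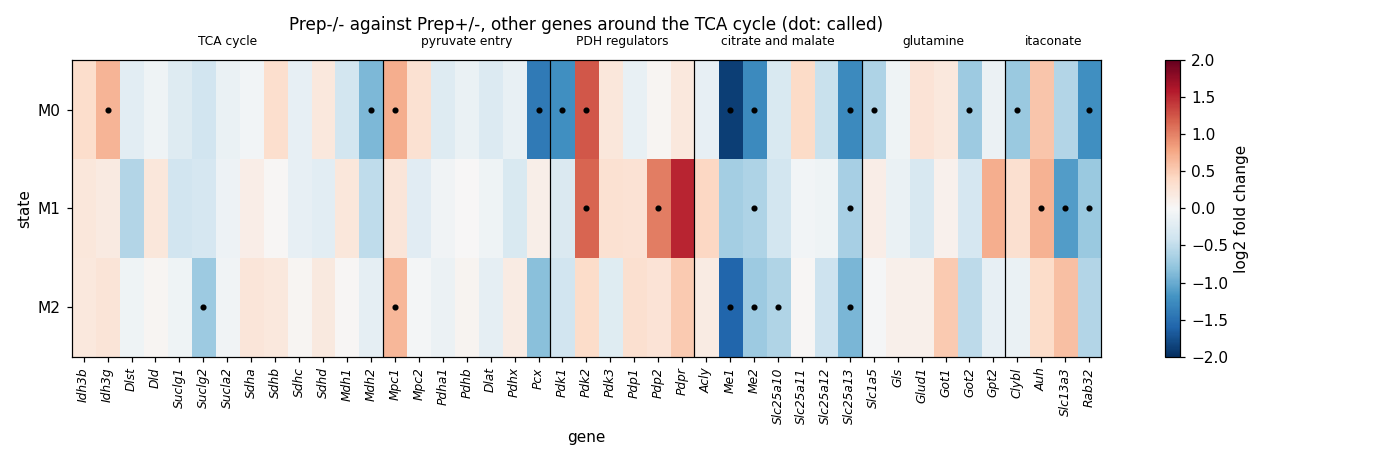
Log2 fold change of Prep-/- against Prep+/- BMDMs in M0, M1 and M2 (colour, from -2 to 2) for the 43 listed genes tested, grouped by list, with a dot on each DEG. Me1 is the lowest in M0 at -1.88, and Me2 and Slc25a13 carry a dot in all 3 states.

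Among 13 other TCA cycle enzymes, 1 was higher and 1 lower in M0 (15.4% and 17.2% of all genes), 0 were DEGs in M1, and 1 was lower in M2 (9.82%). Mdh2, the mitochondrial malate dehydrogenase gene, was lower in Prep-/- M0 by 0.90 ± 0.11 (-0.90, adjusted p = 1.12e-05), and Idh3g was the higher one. Suclg2, of the GTP-forming succinyl-CoA ligase, was lower in M2 by 0.73 ± 0.13 (-0.73, adjusted p = 0.000721). LPS raised 3 and lowered 2 in Prep+/- (16.7% and 20.9% of all genes) and raised 1 and lowered 2 in Prep-/- BMDMs (20.9% and 21.0%), with Mdh2 raised by 0.99 ± 0.11 and 1.39 ± 0.11 and Suclg2 lowered in both (-0.91 and -0.86). The interaction of Mdh2 for M2 was 0.72 ± 0.16 (adjusted p = 0.0100).

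Among 7 genes of pyruvate entry, 1 was higher and 1 lower in M0 (15.4% and 17.2% of all genes), 0 passed in M1, and 1 was higher in M2 (6.37%). Mpc1, a subunit of the mitochondrial pyruvate carrier, was higher in Prep-/- BMDMs in M0 and M2 (0.73 ± 0.10 and 0.66 ± 0.10). Pcx, pyruvate carboxylase, was lower in M0 (-1.42 ± 0.33, adjusted p = 0.00207) at 86.5 ± 35.9 against 232 ± 17.5 normalized counts. Of 6 tested regulators of pyruvate dehydrogenase, 1 was higher and 1 lower in M0, 2 were higher in M1 (12.3% of all genes), and 0 passed in M2. Pdk2, an inhibitory kinase, was higher in M0 and M1 (1.24 ± 0.24 and 1.16 ± 0.26), and Pdk1, another of these kinases, was lower in M0 (-1.23 ± 0.34, adjusted p = 0.00758). Pdp2, an activating phosphatase, was higher in M1 (1.02 ± 0.12, adjusted p = 5.09e-05).

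Of 7 tested genes of citrate and malate use, 3 were lower in M0 (17.2% of all genes), 2 in M1 (10.2%) and 4 in M2 (9.82%), and 0 were higher in any state. Me1 and Me2, the cytosolic and a mitochondrial malic enzyme, were lower in M0 (-1.88 ± 0.30 and -1.27 ± 0.14) and in M2 (-1.58 ± 0.30 and -0.73 ± 0.13). In M1 Me1 stood at 650 ± 79.6 normalized counts (SD) in Prep-/- against 1046 ± 18.8 in Prep+/- and was not a DEG. Slc25a13, a mitochondrial aspartate-glutamate carrier, was lower in all 3 states (-1.27 ± 0.21, -0.67 ± 0.22 and -0.92 ± 0.20, with adjusted p = 0.000124, 0.0252 and 0.00347), as was Me2 with -0.62 ± 0.13 in M1. Slc25a10, the dicarboxylate carrier, was lower in M2 (-0.60 ± 0.11). Acly, the ATP citrate lyase gene, was at 0.41 ± 0.14 in M1, past the adjusted p (0.0278) and under the fold, and its M1 interaction of 0.58 ± 0.19 passed (adjusted p = 0.0379).

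Of 6 genes of glutamine entry, 2 were lower in M0 (17.2% of all genes) and 0 passed in M1 and M2. They were Slc1a5, a glutamine transporter (-0.62 ± 0.25, adjusted p = 0.0473), and Got2, the mitochondrial aspartate aminotransferase (-0.73 ± 0.11, adjusted p = 5.47e-05). Of 4 tested genes of itaconate handling, 2 were lower in M0 (17.2% of all genes), 1 was higher and 2 lower in M1 (12.3% and 10.2%), and 0 passed in M2. Clybl, an enzyme that splits citramalyl-CoA in the breakdown of itaconate, was lower in M0 (-0.74 ± 0.13, adjusted p = 0.000291) and had an interaction of 1.06 ± 0.19 for M1 (adjusted p = 0.000949). Rab32, a small GTPase through which itaconate is delivered to vacuoles with bacteria, was lower in M0 and M1 (-1.22 ± 0.18 and -0.74 ± 0.18). Slc13a3, a dicarboxylate transporter, was raised by LPS with Acod1, by 5.68 ± 0.50 in Prep+/- and 5.14 ± 0.49 in Prep-/- BMDMs. Its M1 mean was 7891 ± 417 normalized counts in Prep+/- and 3621 ± 445 in Prep-/- (SD, n = 3), a difference of -1.12 ± 0.40 (adjusted p = 0.0392), while Auh, an enoyl-CoA hydratase, was higher (0.70 ± 0.14, adjusted p = 0.00137).

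The 3 genes most like each of the 9 were taken by Pearson correlation of log2 CPM over the 18 libraries, which share 6 groups, as a description. For Acod1 they were Slfn4, Ptges and Adora2a, each with r = 0.987, all low outside M1. Those of Aco1 were Ffar4 (0.972), Chil3 (0.966) and Awat1 (0.965), all highest in Prep-/- M2. Ffar4 and Awat1 lay near the floor outside M2, with group means of at most 1.59 normalized counts. Cs was most like Msn (0.978), Psmd14 (0.967) and Bak1 (0.962), and Ogdh was most like Htt (0.950), Msn (0.944) and Ibtk (0.940). Idh1 was most like Aph1c (0.971), Pnpla2 (0.966) and Flcn (0.965), and Idh2 most like Rcc2 (0.969), Shcbp1 (0.960) and Ptma (0.957). Nearest to Idh3a were Orc2 (0.968), Pdss1 (0.967) and Hspd1 (0.965), all lowest in Prep-/- M0. Nearest to Fh1 were Ptger3 (0.974), Eif4b (0.970) and Gltp (0.966), with Ptger3 at means of 0 (Prep+/-) and 0.356 (Prep-/-) in M1. Nearest to Slc25a1 were Psen2 (0.907), Pmvk (0.905) and Dnajb2 (0.898). By rank correlation at most 1 of each 3 genes was named again. Among the 9 genes themselves the closest were Cs and Ogdh (r = 0.918), and Acod1 and Fh1 were the most opposed (r = -0.881).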

How the data were processed

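Bulk RNA-seq measured mRNA (TRIzol RNA, a stranded TruSeq mRNA kit) in 18 BMDM libraries, grouped by the genotype and treatment in the sample labels, with 3 in each of 6 groups. Per the submitters' processing notes and the methods of the study, the authors trimmed reads with Trimmomatic 0.36, aligned them to GRCm39 with HISAT2 2.2.1.0 and counted genes with StringTie. The annotation release, the use of strand in counting and the treatment of reads with several positions are not given in the sources used here. The authors deposited whole-number counts per gene symbol without normalization, at 19068237 to 22598279 per library, and 0 sample columns were without a sample.

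Counts were computed further here with edgeR 4.0.16 in R 4.3.3: filterByExpr left 12021 genes, TMM factors were 0.818 to 1.20, and 1 quasi-likelihood model with a mean for each group took in all 18 libraries (common biological coefficient of variation 0.167). DEGs had to pass 0.05 in Benjamini-Hochberg adjusted p and change more than 1.5-fold, and interactions were called on adjusted p alone. Standard errors were derived from that test, as the absolute log2 fold change over the square root of its F statistic. They are not errors that the fit itself reports. The study used DESeq2, which was an alternative here (DESeq2 1.42.0). Others were the scaling, the filter, the fold criterion, the libraries in the fit, a replicate block and leaving out each library. The scripts were tested on simulated data.

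Scaling by DESeq2-type size factors moved the median of all genes by less than the 0.1 (log2) at which a shift would be reported. The sources do not say what a replicate number marks. The deviations of same-numbered libraries from their group means were correlated over 0.1 for all 3 numbers between Prep-/- M0 and M1 (r = 0.201, 0.169 and 0.259) and between Prep+/- and Prep-/- M2 (r = 0.249, 0.255 and 0.462), and for no other of the pairs of groups. No pair of replicates agreed within sampling noise. Where nothing ties replicates to separate mice, p-values measure the spread between libraries.

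The 9 genes and the 6 lists were chosen with earlier results of these data known, and 1 other gene of a list is not reported here. Named besides the 9 genes are called genes of the lists (at most 4 per list and comparison, by size), Idh3b as the third subunit beside Idh3a and Idh3g, chosen after its values were seen, Prep, and the 3 genes most like each by Pearson correlation of log2 CPM (prior count 2). Positions are of GRCm39 (GENCODE) and canonical transcripts gave lengths. Copies of at least 90% identity over at least 200 bases were sought with blastn 2.17.0. Csl, which shares 1617 bases with Cs at 90.4%, had at most 5 counts in any library. Up to 206 bases of the Idh1 transcript match 6 other genes, so reads from them are uncertain. Among these genes Hook3 had up to 1610 counts in a library. Cs, Idh2, Idh3a, Fh1, Acod1 and Ogdh overlap genes of the other strand. On their own strand Cs also overlaps Gm23182, a snoRNA gene, and Idh2 overlaps Gm45203. Promoter windows are RefSeq's on GRCm38.p6.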

Additional observations from a re-analysis of the deposited data

Results flagged for a closer look

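The effect of Prep loss on 4 of the 9 genes differed between M0 and a stimulated state by the interaction test of edgeR, and these 7 values are given for a closer look. Between M1 and M0 the difference of the log2 effects (M1 minus M0) was 0.45 for Cs (adjusted p = 0.00899), 1.10 for Idh3a (adjusted p = 0.0109), 0.56 for Ogdh (adjusted p = 0.00530) and -0.90 for Fh1 (adjusted p = 0.000539). Between M2 and M0 it was 1.42 for Idh3a (adjusted p = 0.00675), 0.57 for Ogdh (adjusted p = 0.0115) and -0.82 for Fh1 (adjusted p = 0.00335). In M0 the 3 Prep-/- libraries lay on one side of the 3 Prep+/- libraries for all 4 genes. The interaction test takes in those M0 libraries, so this is a description and not separate evidence. The share of all genes tested that lay apart in M0 is not given here, and 15.4% were higher and 17.2% lower as DEGs there. In M1 and M2 the genotypes overlapped for Ogdh and Fh1, as they did for Cs in M1 and for Idh3a in M2.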

How the results depend on the processing

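No DEG among the 9 genes changed direction under any alternative run. Every alternative kept the counts of the interactions within 1.5 times. Counts that moved further did so mostly with the fold criterion. With adjusted p alone the genes lower in Prep-/- were 4 in M0 and 2 in M1 and those higher were 2 in M2, and LPS raised 4 and IL-4 and IL-13 raised 3 in Prep+/- BMDMs. With glmTreat, a test against the fold of 1.5 itself, 1 was higher and 1 lower in M0, 0 and 0 in M1 and in M2, 0 were raised in M2 of Prep+/-, and 0 lowered in M2 of Prep-/- BMDMs. The shares of all genes that passed with adjusted p alone or with glmTreat are not given here. These counts thus show only how the calls of the 9 genes moved with the rule. In a fit of the libraries compared alone, and in that fit with a replicate block, 1 gene (Acod1) was lower in M2 of Prep+/-, and the cause was not tested. The replicate block changed no other call, counted as 2 higher and 2 lower in Prep-/- M0, 5 raised and 2 lowered by LPS in Prep-/-, and 1 higher and 1 lower in Prep-/- M2, the last 2 being the paired comparisons. Added to the fit of all libraries, the block left the calls over all genes within 1.5 times in each of the 9 comparisons (3644 against 3636 for M2 in Prep-/- BMDMs and 1266 against 1159 for the M2 interaction). Fewer libraries in the fit moved the M2 interaction further, to 583 calls without and 685 with the block, and M2 in Prep-/- BMDMs to 2578 and 2341. DESeq2 called 1703 for the M2 interaction and passed Cs there (0.28, adjusted p = 0.0141).

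Leaving out 1 library gave 1 to 2 higher and 0 to 1 lower in Prep-/- M1, 0 to 2 higher and 1 to 2 lower in Prep-/- M2, 1 to 2 raised in M2 of Prep+/-, and 0 to 1 lowered in M2 of Prep-/- BMDMs. The libraries were the first and second of Prep-/- M1, all 3 of Prep-/- M2 and the first of Prep+/- M0. Without the third replicates of Prep-/- M0 and M2, an alternative chosen after seeing the data, 2 were higher and 2 lower in M2.

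Some values that did not pass crossed 0, and not all of them were near it. Acod1 had main values of -0.31 between genotypes in M0 and 0.45 for M2 in Prep-/- BMDMs. For Ogdh the genotype value in M1 was -0.0262 with DESeq2, -0.0263 with its size factors, -0.0105 with at least 1 CPM in 3 libraries, -0.0118 with those libraries alone and -0.00947 with the replicate block as well, and in M2 it was -0.00516 with the CPM filter. Without single libraries the genotype values ran from -0.0600 to 0.0668 for Ogdh and -0.0913 to 0.0744 for Aco1 in M1, from -0.0153 to 0.0541 for Ogdh and -0.0952 to 0.0712 for Fh1 in M2, and from -0.601 to 0.122 for Acod1 in M0. Without both libraries that stood apart, Fh1 in M2 was 0.0715 and Acod1 in M0 was 0.122. For LPS in Prep+/- the values ran from -0.0468 to 0.0518 for Aco1 and -0.0404 to 0.226 for Idh3a. For M2 in Prep-/- they ran from -0.144 to 0.768 for Acod1, -0.0432 to 0.0929 for Idh2 and -0.299 to 0.0827 for Slc25a1. For the M2 interaction they ran from -0.116 to 0.267 for Slc25a1 and -0.123 to 0.0126 for Idh2.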
